A study of Mus musculus with 3 samples.

Results

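The forkhead genes encode transcription factors that share a winged-helix DNA-binding domain, and 44 protein-coding mouse genes with a symbol made of Fox, a letter and a number were found among 21631 protein-coding genes on the 20 chromosomes with peaks. They were set against chromatin sites of FOG2, the zinc finger partner of GATA factors encoded by Zfpm2, in the E12.5 mouse heart ventricle (E counts days of embryonic development). There were 2 libraries from biotin pulldown of FOG2 and 1 input library, and the peaks analysed are the authors' single list of 6166 for the pooled pulldown. Per the labels' protocol, each biological replicate held about 20 ventricles of Fog2flbio/flbio;Rosa26BirA/BirA embryos, in which tagged FOG2 is biotinylated by the bacterial ligase BirA expressed from Rosa26, and streptavidin beads recover it. The genotype field of the labels reads WT and the antibody field FOG2. No pulldown from BirA embryos without the tagged allele was analysed here.

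The pooled list holds no value per replicate, so no result below has a replicate spread or a test between libraries. The fold of a peak is the authors' ratio of pulldown to control at the summit, the point of highest signal. A whole ventricle mixes cell types, and a site bound in few cells and a site bound weakly in many cannot be told apart. Expression was not measured in this series. Of markers that define cell types, a summit was assigned to 11 of 12 cardiomyocyte genes, 0 of 8 hepatocyte genes, 3 of 8 neuron genes and 1 of 8 blood genes, against 13.6% of all protein-coding genes. With so few genes in a list, a count of 0 or 1 of 8 is close to that share.

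Forkhead proteins divide into lettered classes. FOXA factors open chromatin in gut endoderm, FOXC and FOXF factors act in mesoderm and vessels, and FOXO factors are held out of the nucleus by insulin and AKT signalling. FOXP factors are mostly repressors that work as dimers. In the heart, FOXP1 is known for outflow tract and valve formation and for the growth of ventricular muscle. FOXM1 drives the cell cycle of heart muscle cells, and FOXC1 and FOXC2 shape the outflow tract and arch arteries.

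FOG2 summits were found at 10 of the 44 forkhead genes (22.7%), against 13.6% of all protein-coding genes. A summit belonged to the nearest protein-coding gene body within 100 kb. The 10 genes were Foxb1, Foxb2, Foxd3, Foxj3, Foxk1, Foxl1, Foxn2, Foxo1, Foxp1 and Foxp2, and together they held 17 summits. The other 34 genes had none. Only Foxp1, Foxp2, Foxo1 and Foxj3 had a summit inside the gene body, which is 9.09% of the family against 8.31% of all genes.

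**Figure D1:**
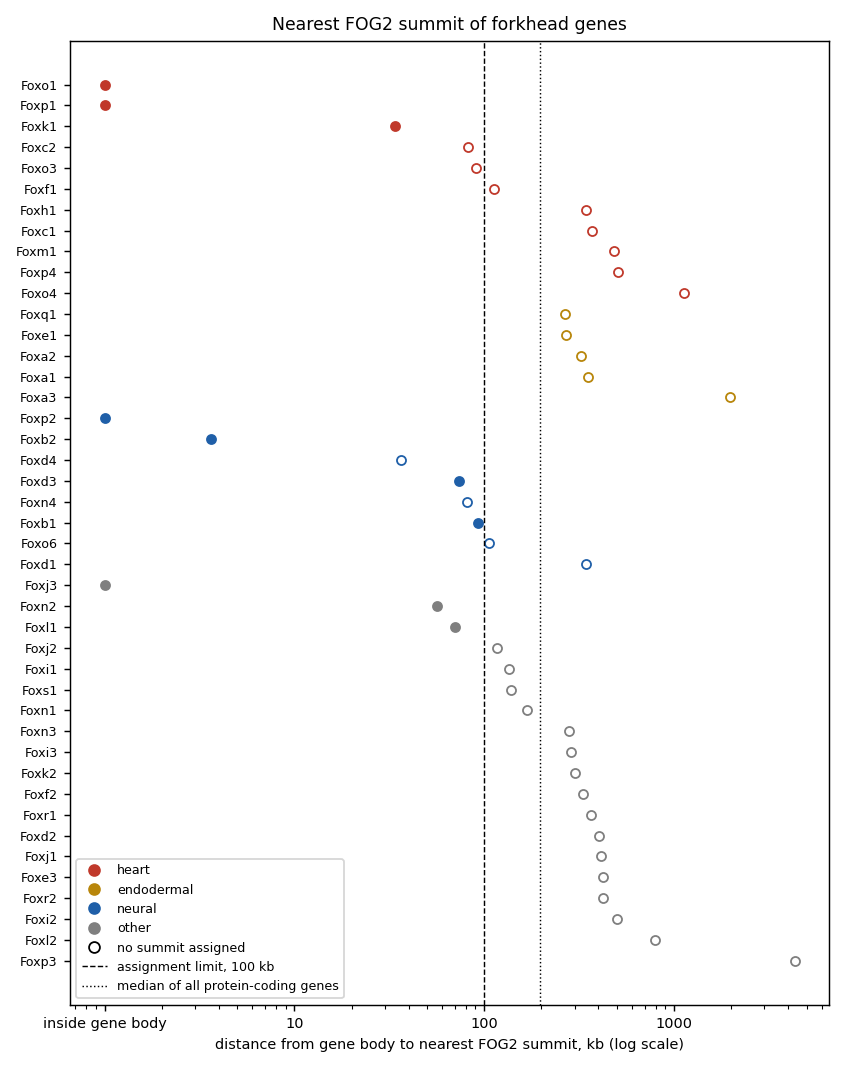
Distance in kb (log scale) from forkhead gene bodies to the nearest FOG2 summit, one point per gene reported, grouped by where the gene is known to act, with filled points for the 10 genes that own a summit. Points at the left edge are the 4 genes with a summit inside, the dashed line is the 100 kb limit and the dotted line is the median over all protein-coding genes (196 kb).

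Foxp1 carried the strongest forkhead site. Its gene body (chr6:98925342-99522746, 597.4 kb) held 3 summits, all inside. The peak at chr6:99200727-99200978 was 11.3-fold over control and rested on 22 pulldown fragments (95% Poisson interval 13.8 to 33.3) against a control level of 1.03. It ranked 768 of 6166 by fold and was the sole forkhead peak to reach 10-fold, while 16.9% of all peaks did. A neighbouring peak at chr6:99200424-99200623, with its summit 311 bp away, was 6.12-fold with 11 fragments (5.49 to 19.7). The remaining Foxp1 peak, at chr6:99467285-99467494, was 5.55-fold with 8 fragments (3.45 to 15.8). Differences between the Foxp1 peaks were not tested.

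None of the Foxp1 summits lay at a listed start site. RefSeq (GRCm38.p6) lists 3 starts for Foxp1, all read from the minus strand. The adjacent pair lay 65.7 and 66.0 kb downstream of the middle start, and the weaker peak 53.6 kb downstream of the start farthest upstream. The 250 bases before each start (its window) are shown, and bases after the start were not examined. The window of Foxb2 is added, as its start is the closest to a forkhead summit among the genes with a listed start. Capitals mark CpG dinucleotides.
Foxp1, start 172.2 kb from the nearest summit, chr6:99028299-99028548, minus strand: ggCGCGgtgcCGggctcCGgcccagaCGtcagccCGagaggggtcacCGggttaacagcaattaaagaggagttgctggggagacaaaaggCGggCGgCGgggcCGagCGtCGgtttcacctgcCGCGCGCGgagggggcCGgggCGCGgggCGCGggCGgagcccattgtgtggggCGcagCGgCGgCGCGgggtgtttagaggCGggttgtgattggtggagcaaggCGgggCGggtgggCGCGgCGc
Foxp1, start 65.7 kb from the nearest summit, chr6:99266516-99266765, minus strand: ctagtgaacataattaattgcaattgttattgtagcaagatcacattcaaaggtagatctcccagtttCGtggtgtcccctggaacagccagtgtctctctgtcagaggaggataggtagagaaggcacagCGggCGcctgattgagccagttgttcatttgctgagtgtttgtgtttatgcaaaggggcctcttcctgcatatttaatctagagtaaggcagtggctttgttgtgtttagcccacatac
Foxp1, start 53.6 kb from the nearest summit, chr6:99520994-99521243, minus strand: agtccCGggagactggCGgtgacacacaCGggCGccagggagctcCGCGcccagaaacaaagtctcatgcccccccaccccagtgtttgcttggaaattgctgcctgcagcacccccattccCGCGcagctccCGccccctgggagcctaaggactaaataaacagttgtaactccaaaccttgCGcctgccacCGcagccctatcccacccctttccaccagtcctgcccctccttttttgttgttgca
Foxb2, start 5.17 kb from the nearest summit, chr19:16873831-16874080, minus strand: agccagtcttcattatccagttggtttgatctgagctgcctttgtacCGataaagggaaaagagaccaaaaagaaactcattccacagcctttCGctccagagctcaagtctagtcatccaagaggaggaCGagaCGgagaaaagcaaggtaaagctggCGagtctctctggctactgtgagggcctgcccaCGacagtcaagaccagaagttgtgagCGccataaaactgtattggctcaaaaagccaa

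The 3 Foxp1 windows differ in base composition. The window nearest the strongest summits held 3 CpG and 45.2% G or C. The other 2 held 34 CpG with 74.0% G or C, and 11 CpG with 60.8%. The Foxb2 window held 7 CpG and 48.4% G or C. Over 33 forkhead windows of 28 genes in the RefSeq table the median was 16 CpG and 62.0% G or C, against 10 CpG and 55.6% over 21045 windows of protein-coding genes. No forkhead window overlapped a FOG2 peak, and 0.366% of all windows did. With 33 windows, a count of 0 is close to that share. The windows were searched on both strands for short words that transcription factors are known to bind, counting windows and not hits. The word of GATA factors was taken as AGATAA, and also, since their first base varies, as TGATAA. Either stood in 3 of 33 forkhead windows, 1 at Foxa2 and 2 at Foxp3, and in 14.5% of all windows. The T-box word AGGTGT stood in 0 of 33 and in 11.1% of all windows. The forkhead word TGTTTAC stood in 1 of 33, at Foxa1, and in 2.64% of all windows. The Foxp1 and Foxb2 windows above held none of these exact words. The forkhead word was not widened as the GATA word was, so variants of it were not counted. The sequence of the peaks themselves was not analysed here.

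Foxo1, a target of insulin signalling that is needed for vessel formation in the embryo, had 2 summits. The stronger peak, chr3:52342822-52343041, lay inside the gene body (chr3:52268337-52350109), 74.6 kb downstream of the start. It was 7.40-fold with 11 fragments (5.49 to 19.7), close to the 6.88- and 6.84-fold of the next forkhead peaks, on 10 fragments each. The weaker peak, chr3:52196495-52196664, lay 71.8 kb upstream of the start and was 5.70-fold with 10 fragments (4.80 to 18.4). Foxk1, known from muscle progenitor cells and counted here with the heart genes, had 1 summit 33.9 kb outside the gene body, at chr5:142367550-142367719. That peak was 4.51-fold with 9 fragments (4.12 to 17.1) on a control level of 1.22, a level shared with a Foxn2 summit and the highest in the family. Its −log10 q, from the caller's p-value corrected for multiple testing, was 2.89, near the low end of the family's range of 2.33 to 18.3.

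The other 8 genes of the heart group, known from heart, cardiac vessels or heart progenitors, had no summit assigned. Foxo3 and Foxc2 had a summit within 100 kb that was nearer to another gene. The one by Foxo3, a FOXO factor of heart muscle, was 90.1 kb away and belonged to Armc2 (4.96-fold). For Foxf1, a gene of splanchnic mesoderm, the nearest summit was 113.0 kb away, just outside the limit. The proliferation factor gene Foxm1 and the repressor gene Foxp4 lay 480.6 and 509.7 kb from a summit. Foxh1, which encodes the SMAD partner in Nodal signalling, lay 344.0 kb away, Foxc1 369.4 kb and Foxo4 1125 kb.

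Foxp2, best known from speech circuits of the brain, had the most summits of any forkhead gene. Its 4 summits were spread over its body (chr6:14901349-15441977, 540.6 kb) and beyond it. The 3 inside were 4.38-fold (7 fragments, 2.81 to 14.4), 6.02-fold (10 fragments, 4.80 to 18.4) and 6.88-fold (10 fragments), in order of rising coordinate. For the first of these a second whole number of fragments also matched the deposited values. The fourth lay 59.1 kb outside and was 5.04-fold with 7 fragments. Foxp2 and Foxp1 bodies thus held equal numbers of summits, at 5.55 per Mb (1.14 to 16.2) and 5.02 per Mb (1.04 to 14.7). The Foxp1 count includes the close pair 311 bp apart, taken as separate sites. Only Foxp1 had a peak of 10-fold.

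Foxb2, Foxd3 and Foxb1 had 1 summit each, all outside the gene body. Foxb2, a gene of the developing brain, had a summit 3.66 kb beyond its gene body and 5.17 kb downstream of its start, at chr19:16868616-16868789 (6.22-fold, 9 fragments, 4.12 to 17.1). Foxd3, a neural crest specifier, had a summit 73.8 kb upstream (5.67-fold, 8 fragments). Foxb1 had a summit 92.5 kb from the gene body (5.60-fold, 8 fragments), the most distant of those assigned to the family. Foxd4, Foxn4, Foxd1 and Foxo6 had no summit of their own. A summit lay 36.3 kb from Foxd4 and 81.0 kb from Foxn4, nearer in each case to another gene, and the one 105.7 kb from Foxo6 was the first beyond the 100 kb limit.

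Of 19 genes placed in none of these groups, Foxn2, Foxj3 and Foxl1 had summits. Foxn2 had a pair with summits 285 bp apart, at distances of 56.8 and 56.5 kb. These were 6.84-fold (10 fragments, 4.80 to 18.4) and 6.32-fold (13 fragments, 6.92 to 22.2). Foxj3 had 1 inside its body (5.55-fold, 8 fragments). Foxl1, a gene of gut mesenchyme, had 1 at chr8:121201019-121201267, 70.5 kb away (6.30-fold, 9 fragments). Foxl1 stands beside Foxc2 with a gap of 8.79 kb between the bodies, and Foxf1 lies on the far side of Foxc2, 28.0 kb from it. The Foxl1 summit was also the nearest one to Foxc2 and Foxf1. In the cluster of Foxq1, Foxf2 and Foxc1 on chromosome 13 no summit lay within 100 kb of any gene. The pair Foxd2 and Foxe3 on chromosome 4, 15.5 kb apart, lay 405.1 and 423.3 kb from a summit. Foxi1, Foxi2, Foxi3, Foxj1, Foxj2, Foxk2, Foxl2, Foxn1, Foxr1, Foxr2, Foxs1 and the regulatory T cell gene Foxp3 had none within 100 kb either, at distances from 116.7 kb (Foxj2) to 4340 kb (Foxp3).

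**Figure D2:**
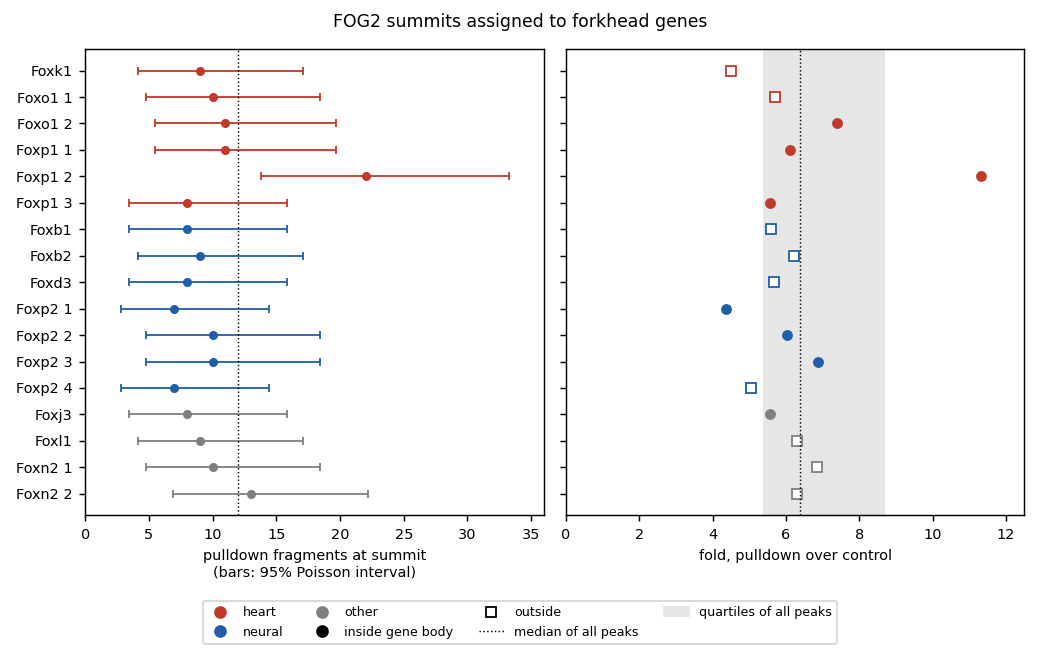
The 17 summits assigned to forkhead genes, numbered along the chromosome where a gene has several, with pulldown fragments and their 95% Poisson intervals on the left and the authors' fold on the right. Filled circles are inside a gene body and open squares outside, the dotted lines are medians over all peaks (12 fragments, 6.39-fold) and the shaded band spans the quartiles (5.41 to 8.66). Only the strongest Foxp1 peak lies above the band.

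Forkhead peaks were mostly of ordinary or low strength. Their median fold was 6.02, with a range of 4.38 to 11.3, against a median of 6.39 over all peaks. The median summit rested on 9 fragments, against 12 over all peaks, and 13 of the 17 rested on 10 or fewer. Only 4 of the 17 reached the median fold of all peaks. Widths ran from 170 to 291 bp (median 213), against a median of 251 bp over all peaks. Control levels ran from 0.588, the lowest level of the whole list, to 1.22. Apart from the strongest Foxp1 peak, the summits rested on 7 to 13 fragments with widely overlapping intervals, and differences in fold among these were not tested.

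Which of the heart and neural groups had the larger share of genes with a summit depended on the rule of assignment. A summit was assigned to 3 of 11 heart genes (27.3%), 0 of 5 endodermal genes and 4 of 9 neural genes (44.4%), against the 13.6% of all genes. The heart genes held 6 summits, where their territory would hold 4.39 at the genome-wide density. The 6 include the close Foxp1 pair, counted as separate sites. Territory here means all positions within 100 kb of a gene body that have no closer protein-coding gene, and the genome-wide density was 2.52 summits per Mb of it. The endodermal genes held 0 against 1.08, the neural genes 7 against 4.16 and the remaining genes 4 against 4.40. The whole family held 17 against 14.0, with the close pairs at Foxp1 and Foxn2 counted as separate sites. The median territory of a forkhead gene was 91.5 kb, against 44 kb over all genes. Whether the share of the family lay above that of all genes depended on the rule of assignment. With summits of at least 10-fold, 1 of 44 forkhead genes (2.27%) had one, against 3.01% of all genes. With each summit given to its nearest and next nearest gene, 13 forkhead genes (29.5%) had one, against 20.8%, and Foxc2, Foxd4 and Foxo3 joined. With each summit given to every gene within 100 kb, 14 forkhead genes (31.8%) had one, against 33.3%. Under that last rule the heart genes numbered 5 of 11, the endodermal 0 of 5 and the neural 6 of 9. With summits inside gene bodies alone, 2 of 11 heart genes (18.2%), 0 of 5 endodermal genes and 1 of 9 neural genes (11.1%) had one, against 8.31% of all genes. These counts are too small to order the groups. Heart genes are also longer, with a median body of 12.9 kb against 3.23 kb for neural genes. At 10-fold there were 1 of 11 heart genes, 0 of 5 endodermal genes and 0 of 9 neural genes. The differences between these groups were not tested, since the genes of 1 pooled list are not replicates.

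**Figure D3:**
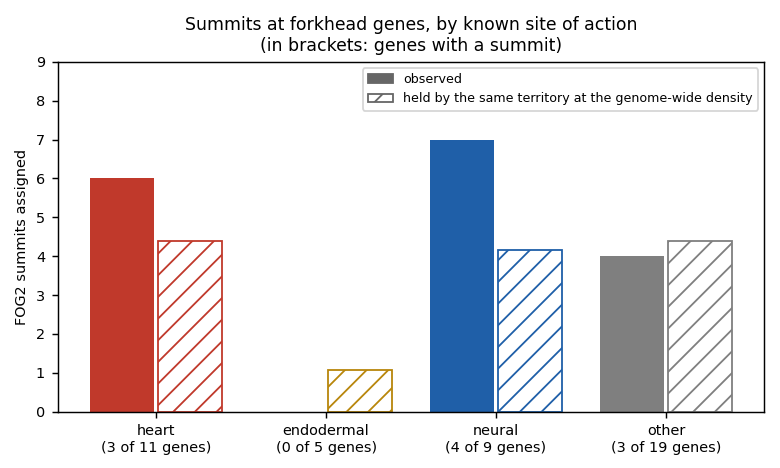
FOG2 summits assigned to forkhead genes in each group by known site of action (solid bars) and the number that the same territory would hold at the genome-wide density (hatched bars). Heart genes had 6 against 4.39, endodermal 0 against 1.08, neural 7 against 4.16 and other genes 4 against 4.40.

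No endodermal gene had a FOG2 summit within 100 kb. With only 5 genes, a count of 0 with an assigned summit is close to the 13.6% of all genes. Their territory would hold 1.08 summits. The count of 0 therefore does not set the endodermal genes apart from all genes, and their difference from the heart genes was not tested. The median distance to the nearest summit was 113 kb for heart genes, 325 kb for endodermal genes, 81.0 kb for neural genes and 274 kb over the family, against 196 kb over all genes. Foxa1 and Foxa2, which specify liver, lung and pancreas, were 354.0 and 325.1 kb from a summit, and Foxa3 was 1971 kb away. Foxe1, a thyroid gene, was 269.7 kb away, and Foxq1, known from the stomach, 265.8 kb. Of these, Foxa2 has a large territory (204 kb, expected to hold 0.514 summits), and Foxa3 a small one (13 kb).

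Inside the family, summits fell on the genes with much space around them. All 10 genes with a summit were among the 24 forkhead genes in the upper 3 deciles of all genes by territory, where 33.4% of all genes had a summit. Of the 20 forkhead genes in the lower 7 deciles, 0 had one, and 5.10% of all genes did. Heart and neural genes each had 7 members in the upper deciles, of which 3 and 4 had a summit. The endodermal group had 2, with 0. The largest decile held 7 forkhead genes, of which 4 had a summit, near the 52.9% of all genes in it. Those 4 were Foxp1, Foxp2, Foxo1 and Foxb1. Their territories would hold 1.88, 1.80, 0.665 and 0.512 summits, and they had 3, 4, 2 and 1. The 3 of Foxp1 include its close pair. Of the decile's genes with no summit, the territories of Foxn3 and Foxa2 would hold 1.35 and 0.514.

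**Figure D4:**
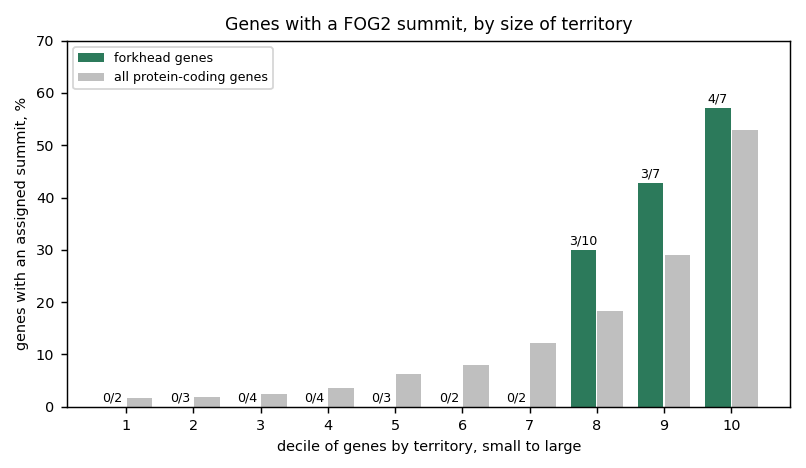
Percent of genes with an assigned FOG2 summit in each decile of genes ordered by territory, for forkhead genes (green, with counts) and all protein-coding genes (grey). The 10 forkhead genes with a summit all fall in deciles 8 to 10, where the share of all genes is 18.3%, 29.0% and 52.9%.

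Of the 3 forkhead genes over 100 kb, Foxn3 alone had no summit. Its body of 373.6 kb and territory of 537 kb would hold 1.35 summits, and none was assigned. The nearest summit was 279.0 kb outside the body (6.22-fold). A count of 0 allows up to 8.03 summits per Mb of body, counting 3 as the limit, which includes the values of Foxp1 and Foxp2. The 8 forkhead genes over 50 kb held 8 summits in their bodies, or 4.22 per Mb (1.82 to 8.32), against 2.97 per Mb (2.85 to 3.09) for 4941 genes of that size. The close Foxp1 pair is counted here as separate sites.

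**Figure D5:**
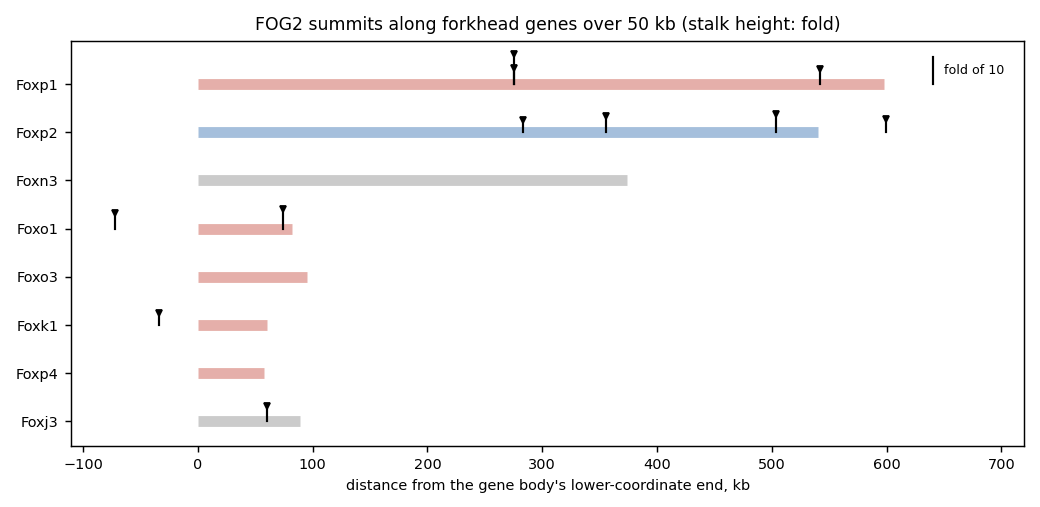
FOG2 summits assigned to the 8 forkhead genes over 50 kb, drawn as stalks whose height is the authors' fold along the distance in kb from the lower-coordinate end of each gene body (bars; red heart, blue neural, grey other). Foxp1 holds a close pair that includes the tallest stalk, Foxp2 has 4 spread sites, and Foxn3, Foxo3 and Foxp4 have none.

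FOG2 sites also lay at genes that control FOXO factors. Of 13 upstream regulators of FOXO activity, 7 had a summit (53.8%, against 13.6% of all genes), with 13 summits where their territory would hold 5.99. This list was chosen with earlier results of these data known, so its share is not independent of that choice. Its genes also have large territories, with a median of 178 kb against 44 kb over all genes. The insulin receptor gene Insr had a peak of 29.0-fold with 64 fragments (49.3 to 81.7) inside the gene, at chr8:3180090-3180503. Pik3r1, the regulatory subunit of PI3 kinase, had one of 14.8-fold with 26 fragments (17.0 to 38.1), also inside. The insulin receptor substrate gene Irs2 had one of 9.87-fold, 86.9 kb outside. The fragment interval of the Insr peak lay above that of the stronger Foxo1 peak, while those of Pik3r1 and Irs2 (15 fragments, 8.40 to 24.7) overlapped it.

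Known targets of FOXO factors had 2 of 13 genes with a summit (15.4%, near the 13.6% of all genes), and 2 summits where their territory would hold 2.41. These were Bcl2l11, which encodes the death inducer BIM (13.1-fold, 27 fragments, 17.8 to 39.3, 17.6 kb outside), and Fbxo32, the muscle ubiquitin ligase atrogin-1 (8.49-fold, 23 fragments, 14.6 to 34.5, inside). Among 18 partners and targets of FOXP1, FOXH1, FOXM1 and FOXC factors, 6 had a summit (33.3%, against 13.6% of all genes), with 13 summits against 6.33 by territory. These lists too were chosen with earlier results of these data known, and the median territory of the 18 genes was 120.5 kb, against 44 kb over all genes. The highest folds were at Nkx2-5 (22.1-fold), Smad2 (13.6-fold, 44.1 kb outside) and Smad3 (9.45-fold, inside). Smad2 and Smad3 encode signal transducers of the TGF-beta and Nodal pathways.

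Other transcription factor families gave a scale for these counts. A summit was assigned to 10 of 44 forkhead genes (22.7%), 5 of 19 Sox genes (26.3%) and 6 of 13 T-box genes (46.2%), against 13.6% of all genes. Summits numbered 17 for forkhead genes against 14.0 by territory, 15 against 9.44 for Sox genes and 18 against 3.97 for T-box genes. Summits of close pairs were counted as separate sites. Peaks of at least 10-fold numbered 1 for forkhead genes (5.88%), 1 for Sox genes (6.67%) and 5 for T-box genes (27.8%), against 16.9% of all peaks. The differences between families were not tested.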

How the data were processed

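The sole data file was the authors' pooled list of FOG2 pulldown peaks, from which its name says blacklisted regions were taken out. Per the submitters' processing notes, the tools were Bowtie2 2.3.2, SAMtools 1.5, Picard and MACS2 2.1.1 with build mm10. Aligner and caller settings were not given in the sources used here. As deposited, the fold divides pulldown by control at each summit (a linear ratio), and the deposited −log10 p and −log10 q are the peak caller's. The deposited display score was not used.

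Summits (1-based) were assigned to the nearest protein-coding gene body within 100 kb, from a RefSeq table of GRCm38.p6, and summits tied between overlapping bodies went to each. That table gives neither exons nor introns, so none are stated. Start sites and promoter sequences are RefSeq's (GRCm38.p6). Territory was measured on a 1 kb grid. Fragments were recovered from fold and −log10 p as a whole number satisfying a Poisson tail with 1 added to both sides of the fold, which matched within 0.001 in 100% of peaks. In 83 peaks, 1 of them at a forkhead gene, another whole number also matched. Intervals cover counting error only, and library depth is not given in the files.

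The members and lists were chosen with earlier results of these data known, and the heart, endodermal and neural groups come from textbook knowledge of each gene. All 105 listed genes were matched. Every forkhead gene was counted, though not every one is reported here by name, with values for every summit and, in the FOXO and partner lists, for the 3 genes of highest fold. No significance test was run, since 1 pooled list allows none between samples. Assignment and fragment recovery were tested on simulated data. Python 3.11.15, NumPy 2.4.6, pandas 2.3.3 and SciPy 1.17.1 were used. The settings varied were the peak threshold, the distance and the rule of assignment.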

Additional observations from a re-analysis of the deposited data

How the results depend on the processing

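No paired analysis was possible because the 2 pulldown replicates were pooled before peaks were called, and for the same reason no replicate could be left out. Assignment to every gene within 100 kb was chosen after the values were seen. Of 60 recomputed values, 40 stayed within 1.5 times the reported count or, for the median fold, within its 95% interval (5.55 to 6.32). Those 40 include endodermal counts of 0, which a stricter setting could not change. The number of forkhead genes itself moved under several settings. At a −log10 q of at least 5 the family kept 6 genes (13.6%, against 10.0% of all genes) and 9 summits. The 6 genes included 2 neural genes and, without Foxk1, 2 heart genes. At a fold of at least 10 it kept 1 gene (against 3.01%) and 1 summit, that of Foxp1, at 11.3-fold, which left 1 heart gene and 0 neural genes. Within 10 kb of the gene body there were 5 genes (11.4%, against 10.0%) and 9 summits, with 2 neural genes. Inside the body there were 4 genes (9.09%, against 8.31%) and 8 summits, with 1 neural gene. With genes of any biotype there were 5 genes (11.4%, against 10.5%) and 10 summits, with 2 neural genes. Within 1000 kb, Foxq1 made 1 endodermal gene. Heart genes numbered 5 both with the nearest and next nearest gene and with every gene within 100 kb. Giving a summit to every gene gave 14 forkhead genes (31.8%) against 33.3% of all genes, so the family did not stand above all genes under it, nor at 10-fold. The share of neural genes was no longer above that of heart genes inside gene bodies or at 10-fold. Depth limits the comparison of single peaks, since 16 of the 17 summits rested on 7 to 13 fragments.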

Other observations

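Noncoding genes stood closer than the forkhead gene at 7 of the 17 summits. When genes of any biotype could take a summit, those of Foxb1, Foxd3, Foxk1, Foxl1 and Foxn2 and the upstream summit of Foxo1 went to long noncoding RNA genes. Both Foxn2 summits lay inside Gm31615, and the Foxl1 summit inside 5033426O07Rik. The Foxk1 summit lay 0.405 kb from Gm31068 and the Foxb1 summit 2.14 kb from Gm31469. All summits of Foxp1, Foxp2, Foxj3 and Foxb2 kept their forkhead gene.

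Close pairs of summits occurred at Foxp1 (311 bp apart) and Foxn2 (285 bp apart). These made up 4 of the 17 forkhead summits, and 3.54% of all summits had another within 500 bp. No other forkhead summit had one within 10 kb, where 18.6% of all summits did. The chromatin was sheared to 300 to 800 bp per the labels' protocol, and how many fragments the summits of a pair share was not tested.

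Summits within 1000 kb of a forkhead gene body ranged from 0 to 13, with a median of 4.5, against a median of 4 over all genes. The highest numbers were at the neural genes Foxd4 (13), Foxd3 (12) and Foxd1 (11), and Foxa3, Foxo4 and Foxp3 had 0.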
